A study of Mus musculus with 10 samples.

Results

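The JmjC histone demethylases described here are 10 genes, Kdm2a, Kdm2b, Kdm3a, Kdm3b, Kdm4a, Kdm4b, Kdm4c, Kdm5a, Kdm5b and Kdm6b. Their members were taken as every probe set whose platform gene symbol is one of these names, which gave 29 of the 45037 probe sets in the deposited table and 10 of 18193 genes. The cells were 3T3-L1, a clonal line of mouse fibroblasts that can be turned into fat cells and that were assayed here as undifferentiated preadipocytes. They were transfected with 60 nM of a scrambled siRNA (siC) or of an siRNA against LSD1 (siLsd1), the product of Kdm1a, with no change of medium afterwards. The siC 24 h and siLsd1 24 h groups held 2 arrays each, from cells at passage 19. The siC 48 h and siLsd1 48 h groups held 3 arrays each, from cells at passage 21, so time and passage cannot be told apart. No untransfected cells were analysed here, and every group carried an siRNA and the transfection reagent.

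Methyl groups on histone lysines are removed by 2 families of enzymes. LSD1 and its paralogue LSD2 are amine oxidases that use FAD. The JmjC proteins are dioxygenases that use iron, molecular oxygen and 2-oxoglutarate, and they can also act on trimethylated lysines, which amine oxidases cannot. KDM2 enzymes act on histone H3 lysine 36, KDM3 enzymes on H3 lysine 9, KDM4 enzymes on H3 lysines 9 and 36, KDM5 enzymes on H3 lysine 4 and KDM6B on H3 lysine 27. Several of them take part in the control of fat cell formation or of energy metabolism in adipose tissue, and Kdm3a and Kdm4b are known targets of hypoxia-inducible factors.

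Promoter sequence is shown for the 3 members that passed the test in at least 1 comparison, Kdm2b, Kdm4c and Kdm4a, since these are the genes whose transcript levels the results turn on. RefSeq windows of GRCm38.p6 run from 250 bases before a transcript start to 50 bases after it, and 5 of the 10 members had such windows, 11 in all. Where a gene had several, the one with the most CpG dinucleotides is printed, 5′ to 3′ on the gene's strand. Capitals mark letters of 3 short motifs on either strand, overlapping matches being joined: the hypoxia response core (ACGTG or GCGTG), the GC box (GGGCGG) and the CCAAT box (CCAAT).
Kdm2b (chr5:122900301-122900600, minus strand): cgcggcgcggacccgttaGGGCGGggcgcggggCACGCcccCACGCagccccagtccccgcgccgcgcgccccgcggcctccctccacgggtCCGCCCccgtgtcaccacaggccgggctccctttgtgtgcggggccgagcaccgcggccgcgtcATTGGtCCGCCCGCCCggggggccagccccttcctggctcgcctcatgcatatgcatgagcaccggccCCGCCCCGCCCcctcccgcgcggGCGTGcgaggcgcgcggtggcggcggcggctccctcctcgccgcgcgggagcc
Kdm4c (chr4:74251629-74251928, plus strand): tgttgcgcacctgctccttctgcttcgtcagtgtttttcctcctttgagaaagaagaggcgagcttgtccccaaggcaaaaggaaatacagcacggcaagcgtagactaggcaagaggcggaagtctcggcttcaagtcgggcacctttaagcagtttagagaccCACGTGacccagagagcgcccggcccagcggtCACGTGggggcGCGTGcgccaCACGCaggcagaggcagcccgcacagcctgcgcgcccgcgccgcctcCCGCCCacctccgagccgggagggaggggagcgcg
Kdm4a (chr4:118179994-118180293, minus strand): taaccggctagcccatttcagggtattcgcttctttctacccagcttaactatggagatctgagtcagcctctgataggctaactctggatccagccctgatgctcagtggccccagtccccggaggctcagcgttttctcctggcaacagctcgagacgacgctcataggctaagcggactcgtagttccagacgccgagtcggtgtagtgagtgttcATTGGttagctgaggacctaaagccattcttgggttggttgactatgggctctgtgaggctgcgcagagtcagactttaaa
The Kdm2b window held 49 CpG dinucleotides at 81.7% G and C, the Kdm4c window 28 at 64.7% and the Kdm4a window, the only one of that gene, 13 at 53.3%; other windows of Kdm2b and Kdm4c had fewer CpG dinucleotides by the choice made. The Kdm2b window had 3 hypoxia cores, 4 GC boxes and 1 CCAAT box. The Kdm4c window had 4 hypoxia cores, 1 GC box and 0 CCAAT boxes, and the Kdm4a window had only the CCAAT box, 1 of them. Of 32851 windows of this length, 43.8% held a hypoxia core, 35.7% a GC box and 37.4% a CCAAT box. These matches describe the letters and say nothing of whether a factor binds them.

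The values are intensities on a linear scale, with array medians of 35.6 to 40.6. Kdm1a, the target, read 1559 and 1621 in siC and 1001 and 971 in siLsd1 at 24 h, and 1596, 1787 and 1775 in siC against 1352, 1336 and 897 in siLsd1 at 48 h. It was lower on every siLsd1 array, by 0.69 on the log2 scale at 24 h (limma, adjusted p = 0.0473) and by 0.55 at 48 h (adjusted p = 0.0338). Each of these calls was kept in 3 of 10 fits that left out 1 array, with adjusted p up to 0.252 and 0.115, while the mean of -0.62 over both times (adjusted p = 0.00481) was called in 10 of 10. The 24 h call was also lost when every probe set was tested (adjusted p = 0.0693), without the filter on dim genes (0.0576) and without an intensity trend (0.0903), and the 48 h call without a trend (0.0649) and with the compared groups alone (0.104). The knockdown was partial. The third siLsd1 48 h array stood apart. The standard deviation of its log2 differences from its replicates was 0.441 and 0.439 over 6943 brighter genes, against 0.0892 to 0.205 for every other pair of arrays within a group, and it lay closer to the siLsd1 24 h arrays, at 0.361 and 0.353. All 6 fibroblast and preadipocyte markers were above the dim level (a mean of 18.4 intensity units, under which genes were not tested). Their summed intensity was 32180 to 33692 in siC and 28339 to 28680 in siLsd1 at 24 h, and 33719 to 35497 in siC and 23116 to 31490 in siLsd1 at 48 h, so it moved with the siRNA. For the mean of both times 3 of the 6 were called lower and 0 higher, with a median change of -0.46. Of the markers of other cell types, 1 of 4 measured adipocyte genes (Adipoq), 4 of 5 macrophage, 2 of 4 endothelial and 0 of 4 epithelial genes were above it, and the sum over any such list was at most 349 on an array. The part of these markers in the results on the demethylases was not tested.

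All 10 demethylase transcripts were measured above the dim level. Values are given in order of replicate. Log2 changes come from 1 limma fit to the log2 intensities of all 10 arrays, and a gene is called at an adjusted p (Benjamini-Hochberg over 13645 genes) under 0.05. No member was called at 24 h, where 5.39% of all genes were, or at 48 h, where 12.7% were. When the changes at both times were averaged, Kdm2b and Kdm4c were called lower and no member higher, 2 and 0 of 10 members beside 13.7% and 10.1% of all genes (23.8% in either direction). In siC cells, Kdm4a was called lower at 48 h than at 24 h, 1 of 10 members beside 12.2% of genes, and no member was called higher, beside 12% (24.2% in either direction).

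**Figure D1:**
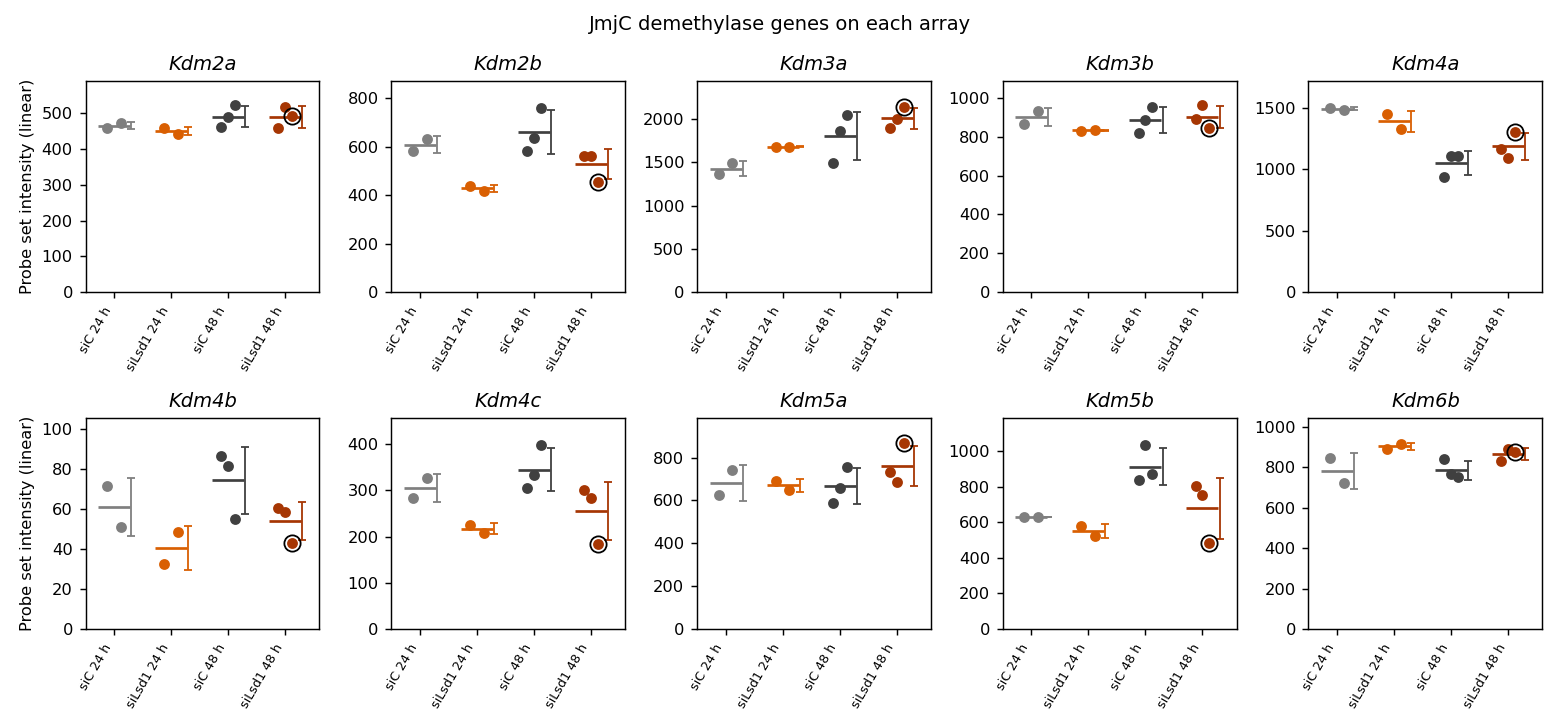
Intensity of the probe set that stands for each of the 10 demethylase genes (y axis, linear scale from 0) in the 4 groups (x axis), with each array as a point, the group mean as a horizontal line and ± SD as the error bar; the circled point is siLsd1 48 h replicate 3. Kdm2b and Kdm4c lie lower in siLsd1 than in siC on every array at both times, and Kdm4a lies lower on the 3 siC 48 h arrays than on the 2 siC 24 h arrays.

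The KDM2 proteins act on H3 lysine 36 and bind unmethylated CpG through a zinc finger; KDM2B also brings a Polycomb complex, PRC1.1, to CpG islands. Kdm2b, of which a promoter window is shown above, read 583 and 632 in siC and 439 and 419 in siLsd1 at 24 h. At 48 h it read 582, 638 and 760 in siC and 563, 563 and 456 in siLsd1. The siLsd1 arrays were lower than every siC array of the same time, although at 48 h the highest siLsd1 value and the lowest siC value were close. Group means were 607.5 ± 34.5 (SD, n = 2) and 429.2 ± 14.2 (SD, n = 2) at 24 h, and 659.7 ± 91.0 (SD, n = 3) and 527.1 ± 61.7 (SD, n = 3) at 48 h. Averaged over both times, Kdm2b fell by 0.41 (SE 0.09, 95% interval -0.62 to -0.20, adjusted p = 0.0132, limma), a 1.33-fold difference. The changes at each time were -0.50 at 24 h (SE 0.15, adjusted p = 0.0782) and -0.32 at 48 h (SE 0.12, adjusted p = 0.0998), neither of which passed. The call for the mean was lost when siC 24 h replicate 2 (-0.38, adjusted p = 0.0579), siLsd1 24 h replicate 1 (-0.43, 0.0507) or siLsd1 24 h replicate 2 (-0.39, 0.0573) was left out. In bulk RNA, fewer cells with a transcript and less of it per cell cannot be told apart.

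Kdm2a, the closest relative of Kdm2b, showed no difference that passed the test. Its values were 458 and 472 in siC and 458 and 442 in siLsd1 at 24 h, then 462, 488 and 523 in siC with 458, 517 and 492 in siLsd1 at 48 h. Both pairs of groups overlapped. The change was -0.05 (95% interval -0.27 to 0.18) at 24 h and -0.01 (-0.19 to 0.18) at 48 h, which leaves room for a change of up to about those bounds.

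The KDM3 proteins remove mono- and dimethyl groups from H3 lysine 9. Kdm3a, whose loss in mice leads to obesity, read 1368 and 1486 in siC and 1672 and 1681 in siLsd1 at 24 h. At 48 h it read 1495, 1863 and 2049 in siC and 1893, 1997 and 2136 in siLsd1. The groups were apart at 24 h, siLsd1 being higher, and overlapped at 48 h. The mean change over both times was 0.20 (SE 0.09, adjusted p = 0.116) and was not called. Kdm3b read 867 and 931 in siC and 830 and 833 in siLsd1 at 24 h, then 818, 885 and 952 in siC with 893, 962 and 847 in siLsd1 at 48 h, with changes of -0.11 (adjusted p = 0.565) and 0.03 (adjusted p = 0.860). Its siLsd1 arrays were below both siC arrays at 24 h, and the groups overlapped at 48 h.

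The KDM4 proteins remove tri- and dimethyl groups from H3 lysine 9 and lysine 36. Kdm4c read 284 and 326 in siC and 226 and 209 in siLsd1 at 24 h. At 48 h it read 305, 333 and 398 in siC and 301, 283 and 184 in siLsd1. It was lower on every siLsd1 array than on every siC array of its time, and the third siLsd1 48 h array was the lowest of the 10. The group means were 305.1 ± 29.6 (SD, n = 2) in siC and 217.1 ± 12 (SD, n = 2) in siLsd1 at 24 h, and 345.1 ± 47.5 (SD, n = 3) and 255.7 ± 63.0 (SD, n = 3) at 48 h. Kdm4c fell by 0.47 in the mean of both times (SE 0.14, 95% interval -0.79 to -0.16, adjusted p = 0.0379, limma), or 1.39-fold. At 24 h the change was -0.49 (adjusted p = 0.224) and at 48 h -0.46 (adjusted p = 0.115). Of the 10 fits that each left out 1 array, 4 kept the call for the mean. It was lost without siC 24 h replicate 1 (-0.52, adjusted p = 0.0753) or 2 (-0.42, 0.130), siLsd1 24 h replicate 1 (-0.50, 0.0981) or 2 (-0.44, 0.120), and siC 48 h replicate 2 (-0.48, 0.0700) or 3 (-0.42, 0.0815). It was also lost when every probe set was tested (adjusted p = 0.0507) and without an intensity trend (0.0602).

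Kdm4b, a known hypoxia target, read 71.3 and 50.8 in siC and 32.6 and 48.3 in siLsd1 at 24 h. At 48 h it read 86.5, 81.1 and 55.1 in siC and 60.5, 58.4 and 42.8 in siLsd1. The groups were apart at 24 h and overlapped at 48 h, where the lowest siC array was under the upper siLsd1 arrays. Its mean change of -0.53 (SE 0.19, 95% interval -0.96 to -0.10, adjusted p = 0.0734) was not called. Without siC 48 h replicate 3 the mean change was -0.63 (adjusted p = 0.0453). This was the only 1 of 10 fits leaving out an array that called Kdm4b, and the changes ran from -0.67 to -0.38.

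Kdm4a, the third KDM4 gene measured, read 1501 and 1483 in siC and 1451 and 1328 in siLsd1 at 24 h, and 938, 1107 and 1108 in siC and 1165, 1090 and 1302 in siLsd1 at 48 h. Every siC 48 h array was below both siC 24 h arrays, with group means of 1051 ± 97.8 (SD, n = 3) and 1492 ± 12.3 (SD, n = 2). In siC cells Kdm4a fell by 0.51 from 24 h to 48 h (SE 0.10, 95% interval -0.74 to -0.28, adjusted p = 0.00671, limma), or 1.42-fold, over a change of passage as well as of time. This call was lost without siC 24 h replicate 1 (-0.50, adjusted p = 0.0551), and the average of both Kdm4a probe sets, of which the second is dim at 8.8 to 19.0, gave -0.12 (adjusted p = 0.605). At 24 h both siLsd1 arrays were below both siC arrays, and at 48 h the groups overlapped. The change with siLsd1 was -0.10 (95% interval -0.36 to 0.15, adjusted p = 0.640) at 24 h and 0.17 (-0.03 to 0.38, adjusted p = 0.229) at 48 h, neither of them called.

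The KDM5 proteins remove tri- and dimethyl groups from H3 lysine 4, the mark of active promoters. Kdm5b read 630 and 632 in siC and 579 and 521 in siLsd1 at 24 h. At 48 h it read 836, 1033 and 871 in siC but 804, 751 and 484 in siLsd1. The siLsd1 arrays were below every siC array of the same time, and siLsd1 48 h replicate 3 was the lowest of all 10. The changes were -0.20 (SE 0.21, adjusted p = 0.625) at 24 h, -0.45 (SE 0.17, adjusted p = 0.103) at 48 h and -0.33 (SE 0.14, 95% interval -0.63 to -0.02, adjusted p = 0.109) on average, none of them called. Both siC 24 h arrays were below the 3 siC 48 h arrays, a difference of 0.53 (SE 0.19, adjusted p = 0.0725).

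Kdm5a, the other KDM5 member, read 623 and 741 in siC and 692 and 648 in siLsd1 at 24 h, then 587, 658 and 754 in siC with 732, 686 and 866 in siLsd1 at 48 h. The groups overlapped at both times, and the changes were -0.02 (95% interval -0.35 to 0.31) and 0.19 (-0.08 to 0.46). KDM6B removes tri- and dimethyl groups from H3 lysine 27, the Polycomb mark. Kdm6b read 846 and 720 in siC and 890 and 916 in siLsd1 at 24 h, then 840, 765 and 752 in siC with 832, 890 and 876 in siLsd1 at 48 h. It was higher on both siLsd1 arrays at 24 h, with overlap at 48 h, and the mean change was 0.18 (SE 0.07, 95% interval 0.03 to 0.32, adjusted p = 0.0829).

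**Figure D2:**
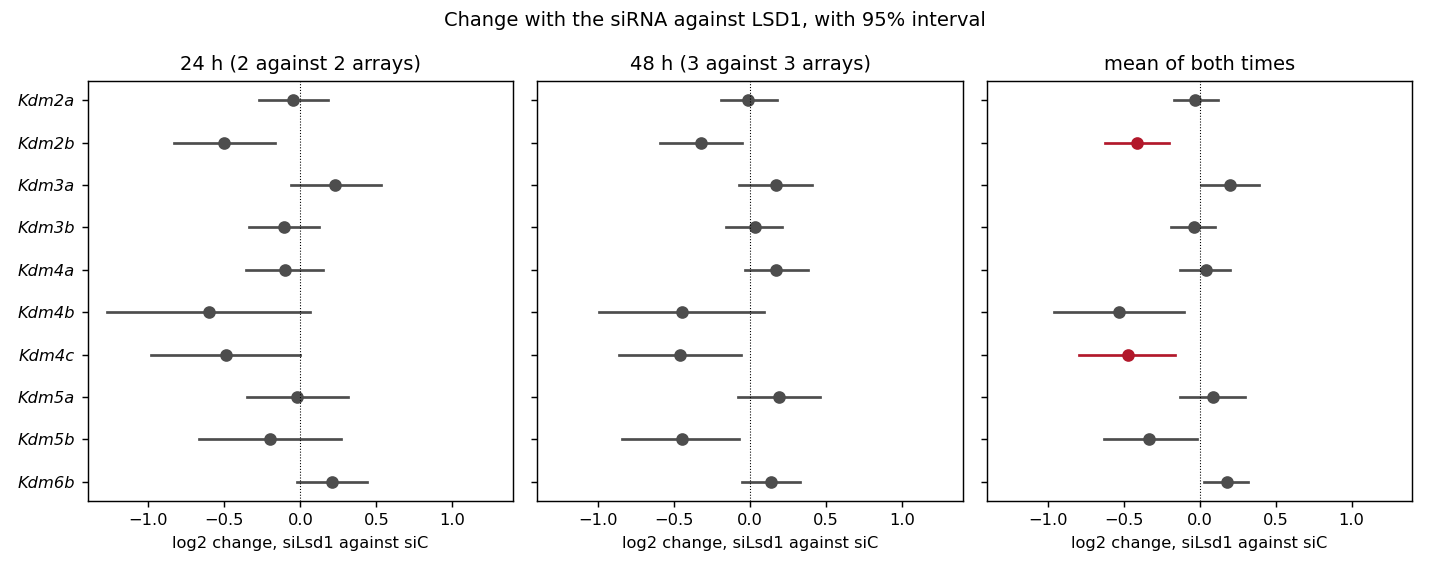
Log2 change (x axis, siLsd1 relative to siC) of each demethylase gene (y axis), with bars for the 95% interval from limma, in 3 panels for 24 h, 48 h and the mean over the times; red marks an adjusted p under 0.05. No gene is red at either single time, and in the third panel Kdm2b (-0.62 to -0.20) and Kdm4c (-0.79 to -0.16) are red.

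At 24 h, 8 of 10 members had a negative change and the median was -0.11, beside -0.02 over all genes tested. At 48 h, 5 were negative and the median was 0.01, again beside -0.02. The count at 24 h depended on scaling: 6 were negative after quantile normalization, where Kdm2a and Kdm5a turned positive, and 7 after centring the arrays, where Kdm5a did. The siLsd1 arrays lay below every siC array for 6 members at 24 h (Kdm2b, Kdm3b, Kdm4a, Kdm4b, Kdm4c and Kdm5b), as 33.9% of all genes did, and above for 2 (Kdm3a and Kdm6b), as 27.5% did. At 48 h they lay below for 3 (Kdm2b, Kdm4c and Kdm5b), beside 20.9% of genes, and above for 0, beside 16.6%. The same 3 genes had an unadjusted p under 0.05 at 48 h, beside 17.6% of genes that were lower by that measure; at 24 h 1 member, Kdm2b, did, beside 13.1%. Between the siC groups, Kdm3a and Kdm5b were higher on every 48 h array, as 28.7% of genes were, and Kdm4a lower, as 26.9% were.

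No member's change with siLsd1 was shown to differ between the times. The change at 48 h minus that at 24 h ran from -0.26 (Kdm5b) to 0.28 (Kdm4a), with adjusted p-values of 0.843 to 0.998. For Kdm2b it was 0.18 (95% interval -0.24 to 0.60) and for Kdm4c 0.03 (-0.60 to 0.67). Over all 13645 genes limma called 0% (0 genes) in this comparison, with 896 genes (6.57%) at an unadjusted p under 0.05, none of them a member.

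Because the third siLsd1 48 h array stood apart, the members were fitted without it as well. For Kdm2b, Kdm3b, Kdm4a, Kdm4b, Kdm4c and Kdm5b, 6 of the 10 members, this array lay nearer to the siLsd1 24 h mean than to the mean of its own group's other arrays. Kdm4c lay 0.67 and Kdm5b 0.68 below those other arrays on the log2 scale, and Kdm2b 0.30 below. Over 6943 brighter genes the array also lay closer to the siLsd1 24 h arrays, as given above. The share of all genes for which this held was not counted. Without the array, Kdm2b (-0.50, adjusted p = 0.00651) and Kdm4c (-0.49, adjusted p = 0.0147) were called at 24 h, where 25.5% of all genes then were. At 48 h no member was called beside 18.1% of genes, and the changes were smaller in size: -0.22 (adjusted p = 0.164) for Kdm2b, -0.23 (0.193) for Kdm4c and -0.23 (0.117) for Kdm5b. For the mean of both times Kdm2b (-0.36, adjusted p = 0.00322), Kdm4c (-0.36, 0.0067) and Kdm5b (-0.21, 0.0319) were called lower and Kdm6b (0.17, 0.0466) higher, beside 33.8% of genes. In siC cells Kdm3a (0.33, adjusted p = 0.0296) and Kdm5b (0.53, adjusted p = 0.000765) were called higher at 48 h and Kdm4a lower (-0.51, adjusted p = 0.000378), beside 40.4% of genes.

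Of the 29 probe sets, 25 passed the level under which probe sets were left out as dim, and 7 of the 10 genes had more than 1. The fit to all 26209 probe sets that passed called 0 of these 25 at 24 h (2.65% of all probe sets), 1 lower at 48 h (3.93%), 3 lower and 0 higher for the mean of both times (9.44% and 7.25%), and 2 higher and 1 lower in siC cells with time (10.4% and 10.5%). Kdm2b had a dimmer probe set that moved like the brighter one. It read 371 and 410 in siC and 281 and 311 in siLsd1 at 24 h, then 404, 475 and 471 in siC with 345, 362 and 280 in siLsd1 at 48 h. It was lower on every siLsd1 array at both times, with changes of -0.40 (adjusted p = 0.189) at 24 h, -0.46 (adjusted p = 0.0482) at 48 h and -0.43 (adjusted p = 0.0159) on average. The 48 h call was kept only without siLsd1 48 h replicate 2 or 3, 2 of 10 fits that left out an array, with adjusted p up to 0.161, and the call for the mean in 8, being lost without siC 24 h replicate 2 or siLsd1 24 h replicate 1.

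The 4 probe sets of Kdm5b did not move together. A dimmer one than the brightest read 27.1 and 30.4 in siC and 22.1 and 16.4 in siLsd1 at 24 h. At 48 h it read 80.2, 91.1 and 99.7 in siC with 64.5, 64.8 and 54.4 in siLsd1. Its siLsd1 arrays were below every siC array at both times, and for the mean it fell by 0.58 (adjusted p = 0.0204), a call kept in 6 of 10 fits that left out an array and lost without siC 24 h replicate 1 or 2, siLsd1 24 h replicate 2 or siC 48 h replicate 2 (adjusted p up to 0.0843). In siC cells it rose by 1.65 from 24 h to 48 h (adjusted p = 0.000483), kept in 10 of 10. The other Kdm5b probe sets, at 178 to 326 and at 22.9 to 48.1, had mean changes of 0.07 and 0.04 and were not called. Of the Kdm6b probe sets, 1 rose in siC cells from 51.0 and 64.1 at 24 h to 80.3, 109 and 85.9 at 48 h (0.67, adjusted p = 0.0299, lost without siC 24 h replicate 1 or 2 or siC 48 h replicate 2 or 3, with adjusted p up to 0.22), while the brightest had no called change. Another Kdm6b probe set, at 384 to 594, went up with siLsd1 at 24 h (0.15) and down at 48 h (-0.21). Its mean change with siLsd1 was -0.03, beside 0.10 for the dimmest Kdm6b probe set and 0.18 for the brightest, none of them called. In siC cells this probe set rose by 0.35 with time (adjusted p = 0.105, limma). With its probe sets averaged, Kdm6b was called higher with time (0.34, adjusted p = 0.0416). No probe set of Kdm2a, Kdm3b or Kdm5a was called in any of the 5 comparisons. Kdm3a, Kdm4b and Kdm4c have 1 probe set each, so their values rest on it.

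**Figure D3:**
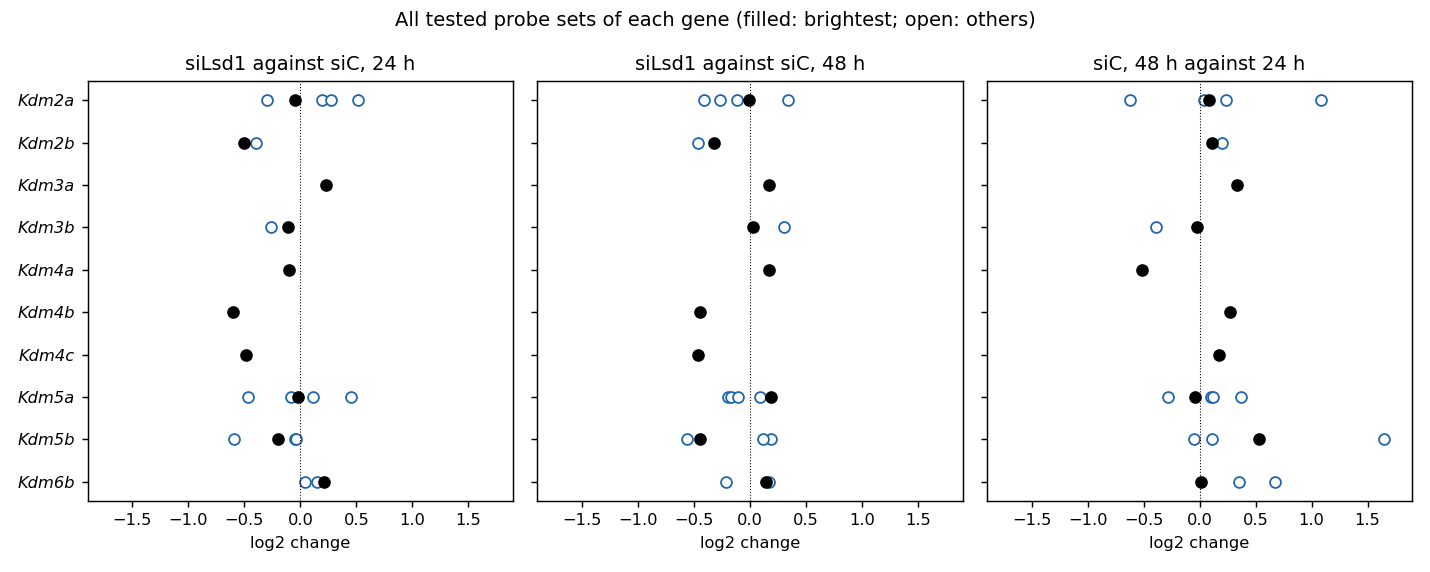
Log2 change (x axis) of each of the 25 demethylase probe sets that passed the dim level, by gene (y axis), in 3 panels for siLsd1 against siC at 24 h, the same at 48 h, and siC at 48 h against 24 h; filled points are the brightest probe set of a gene and open points its others. Both Kdm2b points lie left of 0 in the siLsd1 panels, while those of Kdm2a and Kdm5a lie on both sides. An open Kdm5b point lies farthest right in the third panel, at 1.65.

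Across the 10 arrays, the log2 intensities of Kdm2b and Kdm4c ran together, with a Pearson r of 0.95. Kdm4c and Kdm5b had an r of 0.84, Kdm2b and Kdm5b 0.77, and Kdm2b and Kdm6b -0.83. These values are descriptions over arrays that share the siRNA, time and array effects. Among all genes tested, those most like Kdm2b over the 10 arrays were Maco1 (r = 0.977), Zbtb44 (0.976) and Fam120a (0.976). Those most like Kdm4c were Atrx (0.992), A430033K04Rik (0.987) and Sik2 (0.985), and those most like Kdm4b were Tmem9 (0.945), Fbxl8 (0.944) and Evc (0.941).

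**Figure D4:**
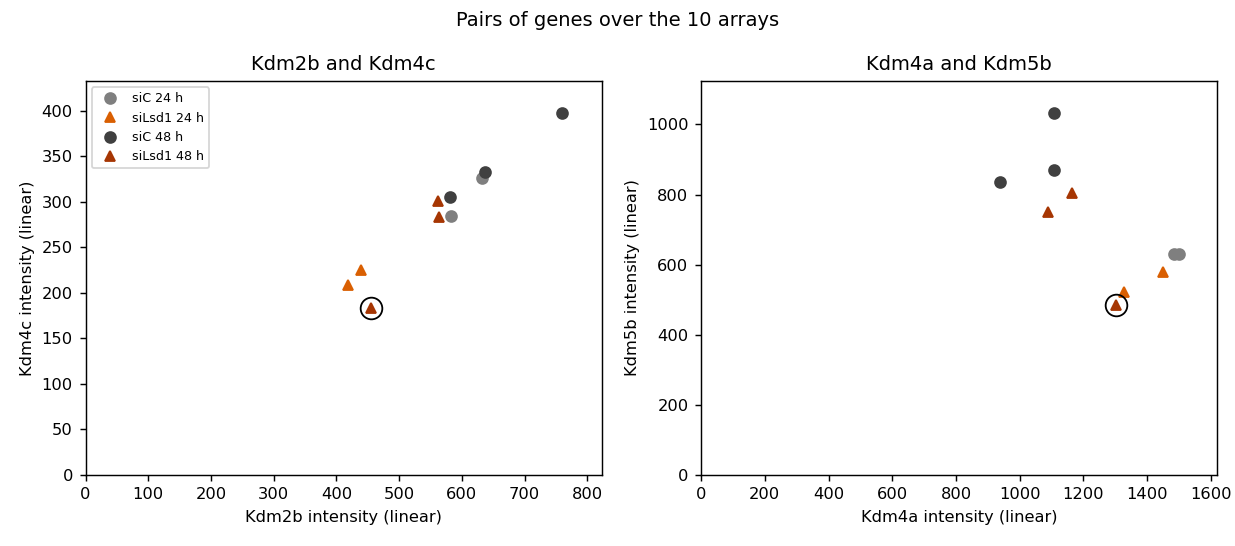
Intensity on a linear scale of Kdm4c against Kdm2b and of Kdm5b against Kdm4a, 1 point per array, coloured by group, with siLsd1 48 h replicate 3 circled. The siLsd1 24 h arrays and the circled array have the lowest values of both Kdm2b and Kdm4c, and in the second panel the circled array lies beside the siLsd1 24 h arrays, at 1302 for Kdm4a and 484 for Kdm5b.

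Of 21 further JmjC genes, 18 were tested. For the mean of both times 3 were called higher and 3 lower, beside 10.1% and 13.7% of all genes, with a median of 0.01 beside -0.02; at 24 h 1 and at 48 h 1 was called, each lower, beside 5.39% and 12.7% of genes called. Without the third siLsd1 48 h array, where 25.5%, 18.1% and 33.8% of all genes were called at 24 h, at 48 h and on average, 5 were higher and 4 lower at 24 h, 2 and 3 at 48 h, and 5 and 4 on average. Kdm7a, which removes methyl groups from H3 lysines 9 and 27, read 357 and 373 in siC and 238 and 236 in siLsd1 at 24 h, then 619, 682 and 715 in siC with 457, 472 and 309 in siLsd1 at 48 h. The groups were apart at both times and Kdm7a fell by 0.67 (SE 0.12, adjusted p = 0.0042), or 1.60-fold, a call kept without any 1 array but not for the mean of its probe sets (-0.24, adjusted p = 0.244). In siC cells it rose by 0.88 with time (adjusted p = 0.00464), or 0.37 (adjusted p = 0.182, not called) with its probe sets averaged. Phf2, a KDM7 relative, fell by 0.37 (adjusted p = 0.0128), but its mean over probe sets gave 0.14 (adjusted p = 0.710). Jmjd8 fell by 0.36 (adjusted p = 0.0132; 0.06 after quantile normalization). Hspbap1 rose by 0.88 (adjusted p = 0.0229), Riox1, a nucleolar oxygenase of a ribosomal protein, by 0.51 (0.0270) and Jmjd6, a lysyl hydroxylase of splicing factors, by 0.27 (0.0256). Averaging probe sets gave 0.26 (0.171) for Hspbap1 and 0.22 (0.0784) for Jmjd6. Hspbap1, Riox1 and Jmjd6 kept the call in 6, 4 and 5 of 10 fits that left out an array, Phf2 in 7 and Jmjd8 in 8. Each of these 5 calls was lost without siLsd1 24 h replicate 1, and also without siC 24 h replicate 2, with adjusted p up to 0.103.

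**Figure D5:**
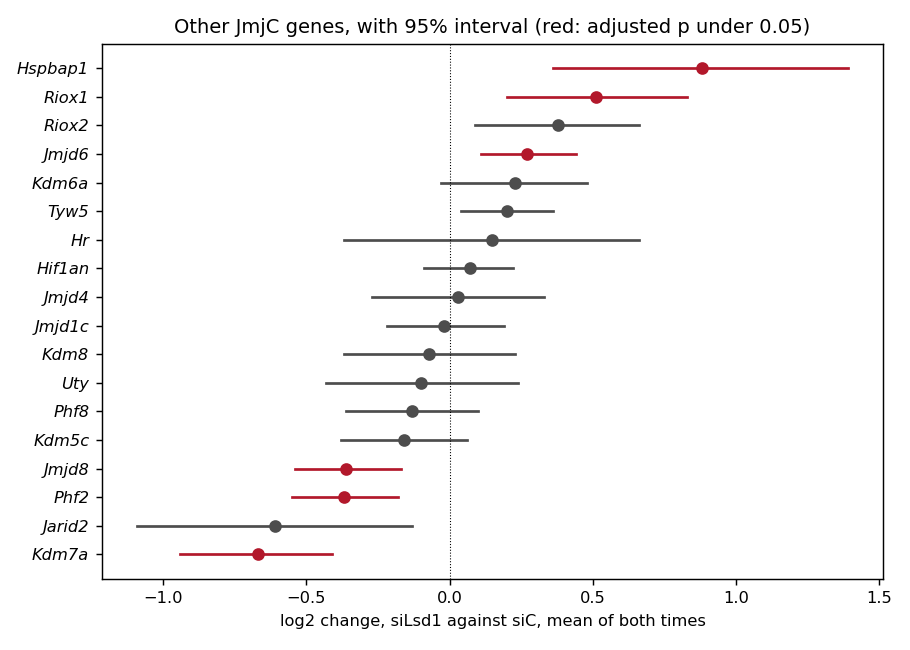
Log2 change with siLsd1 averaged over the times (x axis), with its 95% interval, for the 18 further JmjC genes tested (y axis, in order of change); red marks an adjusted p under 0.05. In red, 3 genes lie above 0 and 3 below 0, the lowest being Kdm7a at -0.67.

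Enzymes that set the marks the demethylases remove were counted for the average of both times, where 23.8% of all genes were called (10.1% higher and 13.7% lower). Of 6 H3 lysine 4 methyltransferases none was called in the fit as reported, the smallest p being that of Kmt2a (-0.42, adjusted p = 0.0678). Kmt2a was called lower with its probe sets averaged (-0.47, adjusted p = 0.0204), with array weights (-0.29, 0.00478) and without siLsd1 48 h replicate 1 (-0.49, 0.0292) or 3 (-0.29, 0.00657). Of 5 H3 lysine 9 methyltransferases Setdb2 rose by 0.91 (adjusted p = 5.94e-05) and Ehmt1, a partner of G9a, fell by 0.34 (adjusted p = 0.0198). Nsd1, an H3 lysine 36 dimethyltransferase, fell by 0.81 (adjusted p = 0.00142), 1 of 5, although the mean of its probe sets gave -0.26 (adjusted p = 0.403). Of 4 Polycomb H3 lysine 27 genes Eed rose by 0.31 (adjusted p = 0.0107), and its mean over probe sets was 0.02 (0.898). None of 8 PRC1.1 partners of KDM2B was called in the fit as reported, the smallest p being that of Pcgf1 (0.23, adjusted p = 0.0903). Pcgf1 was called higher after quantile normalization (0.30, adjusted p = 0.0227) or centring (0.27, 0.0458), with array weights (0.21, 0.0391) and without siLsd1 48 h replicate 3 (0.26, 0.0287). Of 8 partners of the KDM5 proteins Emsy fell by 0.35 (adjusted p = 0.0227). When 1 array was left out, Setdb2 and Nsd1 kept the call in 10 of 10 fits. Eed lost it without siLsd1 24 h replicate 2 (adjusted p = 0.0558), and Ehmt1 and Emsy lost it without any 1 of the 4 arrays at 24 h (adjusted p up to 0.0785 and 0.0875).

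Genes tied to the cofactors of the JmjC enzymes were also counted for the mean of both times. Of 20 tested genes of 2-oxoglutarate metabolism and the citric acid cycle steps after it, 8 were called lower and 1 higher, with a median of -0.12 beside -0.02 for all genes, of which 13.7% were called lower and 10.1% higher. Of the 8, Idh1, Idh3b, Glud1 and D2hgdh encode enzymes whose reactions yield 2-oxoglutarate, while Suclg1, Sdha, Sdhc and Fh1 act on succinyl-CoA, succinate or fumarate. Idh1, which makes 2-oxoglutarate in the cytosol, fell by 0.46 (adjusted p = 0.00243) and Sdhc, a subunit of succinate dehydrogenase, by 0.38 (adjusted p = 0.00819). D2hgdh fell by 0.35 (adjusted p = 0.0135), Suclg1 by 0.31 (0.00765) and Glud1 by 0.25 (0.0327), while Got1, an aspartate aminotransferase, rose by 0.68 (0.0206). Of 7 TET, RNA demethylase and HIF hydroxylase genes, whose enzymes share the iron and 2-oxoglutarate chemistry, 3 were called lower and none higher. These were Egln3, a HIF prolyl hydroxylase (-0.58, adjusted p = 0.00984), Fto, an RNA demethylase (-0.46, 0.00984, but 0.06 for the mean of its probe sets), and Egln2 (-0.21, 0.0362, kept in 1 of 10 fits that left out an array). Of 18 genes known to respond to hypoxia, 6 were called higher and 3 lower, beside 10.1% and 13.7% of all genes. The glycolytic genes Hk2 and Pfkfb3 rose by 1.01 (adjusted p = 0.0110) and 0.73 (0.00530), Ero1a rose by 0.84 (0.00120) and Ddit4 by 0.53 (0.0239), while Mxi1 (-0.87, adjusted p = 0.000763) and Egln3 fell. Kdm3a and Kdm4b, 2 demethylases named above as known hypoxia targets, were called in neither direction in this comparison in the fit as reported. With array weights Kdm3a was called higher (0.15, limma, adjusted p = 0.0345) and Kdm4b lower (-0.50, 0.0179). Whether other members respond to hypoxia was not tested. Without the third siLsd1 48 h array, where 14.5% of all genes were called higher and 19.3% lower, 9 of the 20 2-oxoglutarate and citric acid cycle genes were called lower and 1 higher, 5 of the 7 dioxygenases lower, and 8 of the 18 hypoxia genes higher and 3 lower. When 1 array was left out, Idh1, Sdhc, Suclg1, Fto, Hk2, Pfkfb3, Ero1a and Mxi1 kept their calls in 10 of 10 fits. Egln3 kept it in 8, D2hgdh in 7, Got1 in 6, and Glud1 and Ddit4 in 5, each being lost without siLsd1 24 h replicate 1, with adjusted p up to 0.131. Pfkfb3 was at 0.40 (adjusted p = 0.0839) when its probe sets were averaged.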

How the data were processed

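Transcript levels were measured on 10 Affymetrix arrays hybridised with biotin-labelled cRNA. The deposited table gives 1 linear intensity per probe set and array; the summarisation and normalization behind it are not given in the sources consulted. The number of arrays limits the precision. The labels call the replicates biological, and p-values reflect only their spread.

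Gene symbols came from the platform annotation (34945 with 1 gene symbol, 932 with several, 9160 with none listed). Those with several symbols were left out, 1 of which lists Kdm6b. The deposited intensity was log2-transformed without an added constant. The brightest probe set stood for a gene, and the dimmest 25% of 18193 genes (4548) were left out. A mean per group was fitted with limma 3.58.1 in R 4.3.3 (lmFit, eBayes with an intensity trend, 6 residual degrees of freedom). The 5 comparisons were adjusted separately by Benjamini-Hochberg. The other probe sets of a member come from the same fit over 26209 probe sets. Means ± SD are of linear intensities, and log2 changes are of log2 values. The fit was tested on simulated data, with 50 genes changed at each size. A simulated log2 change of 0.5 was called for 16% of such genes at 24 h and 28% at 48 h. For the mean it was 46%, and in siC cells with time 30%. A change of 1 was called for 56%, 80%, 96% and 68% in the same order. All members are named. Of each other list, called genes are named, up to 6 by size of change, or else the gene with the smallest p. For up to 3 members with the smallest p, the 3 genes with the highest r are named. Members and lists were chosen with earlier results of these data known. Alternatives concerned the probe sets, filter, scaling, trend, weights, block, arrays left out and an added 16. Raising intensities under the dim level to it was chosen after seeing the data. Figures were drawn with matplotlib 3.10.9.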

Additional observations from a re-analysis of the deposited data

How the results depend on the processing

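Leaving out each array in turn gave 30 to 3478 called genes at 24 h, 382 to 2473 at 48 h, 1346 to 4617 for the mean of both times, 0 to 201 for the difference between times and 1482 to 5510 for siC cells with time. Members called lower numbered 0 to 2 at 24 h, 0 at 48 h, 0 to 3 for the mean and 0 to 1 with time; members called higher numbered 0 to 1 for the mean and 0 to 2 with time. Against 736, 1728 and 3250 genes in the fit as reported, averaging each gene's probe sets called 427, 948 and 2134 at 24 h, 48 h and for the mean, and leaving out the intensity trend 402 and 1006 at 24 h and 48 h. Array weights called 3571, 4922, 5602, 434 and 6192 genes in the 5 comparisons, and gave the third siLsd1 48 h array a weight of 0.0948. With weights 0 members were higher and 2 lower at 24 h, beside 1432 and 2139 of 13645 genes. At 48 h 1 was higher and 3 lower, beside 2133 and 2789 genes. For the mean 2 were higher and 4 lower, beside 2356 and 3246 genes. With time 2 were higher and 1 (Kdm4a) lower, beside 3324 and 2868 genes. Fitting the compared groups alone called 3183 genes at 24 h, 250 at 48 h and 4717 with time. At 24 h 1 member was higher and 2 lower, beside 1285 and 1898 genes. With time 1 was higher and 1 (Kdm4a) lower, beside 2474 and 2243 genes. This fit could not be run for the mean or the difference, which need all 4 groups. For the difference, adding 16 called 3 genes, raising dim intensities 3 and no trend 1. Testing every probe set called 5483 features with time. Counting only the probe set that stands for each member, it left 1 member lower for the mean, beside 2474 of 26209 probe sets. No trend also left 1 member lower for the mean, beside 1495 genes. With time, quantile normalization called 2 members higher and 1 (Kdm4a) lower, beside 1943 and 1579 of 13645 genes. Averaging probe sets called 1 member higher and 0 lower with time, beside 1418 and 1276 genes. Kdm4a was then at -0.12 (limma, adjusted p = 0.605), and its other probe set is dim. The mean of probe sets reversed Fto (0.06 for the mean, 0.16 at 48 h) and Phf2 (0.14 for the mean, -0.10 with time). The causes of these changes were not tested.

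A replicate block by number joined same-numbered arrays of both times, although these came from cells of different passages. It called 680 genes at 24 h, 2006 at 48 h, 3273 for the mean and 3696 with time. With time 1 member was higher (Kdm5b, 0.66, limma, adjusted p = 0.0193) and 1 (Kdm4a) lower, beside 1816 and 1880 genes. In the block Kdm4c lost its call for the mean (adjusted p = 0.0515) and Kdm4b gained one (0.0457), as did Kmt2a (-0.42, adjusted p = 0.0283). Deviations of same-numbered arrays from their group means had correlations of -0.07 at 24 h and -0.19, 0.05 and -0.06 at 48 h. With 2 arrays in a group the deviations mirror each other, so both 24 h pairs must give the same value. Those at 48 h also cancel out within a group. Whether the numbers pair the arrays therefore cannot be decided from these values.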

Other observations

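Among the Kdm5a probe sets, 2 varied between replicates more than the brightest one. The first read 410.5 and 176.9 in siC and 442.3 and 305.0 in siLsd1 at 24 h, with 382.8, 432.5 and 146.5 in siC and 312.8, 286.3 and 179.3 in siLsd1 at 48 h. The second read 409.7 and 153.2 in siC and 265.4 and 275.8 in siLsd1 at 24 h, with 292.6, 370.6 and 81.8 in siC and 247.5, 220.1 and 115.0 in siLsd1 at 48 h. In both, siC 24 h replicate 2, siC 48 h replicate 3 and siLsd1 48 h replicate 3 were the lowest of their groups. On the brightest Kdm5a probe set the same 3 arrays were the highest of their groups, at 740.6, 753.8 and 865.9. The residual SDs of the 2 probe sets were 0.673 and 0.863 on the log2 scale, larger than in 96.8% and 98.9% of tested probe sets, while that of the brightest was 0.164, larger than in 37.1%.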
